A study of Mus musculus with 3 samples.

Results

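The Ly49 receptors are a family of lectin-like proteins that mouse NK cells carry on their surface, encoded by the Klra genes. The data described here are the UMI counts of 9 members, Klra1, Klra3, Klra4, Klra5, Klra6, Klra7, Klra8, Klra9 and Klra10, taken as the rows with these symbols among the 25906 genes of each count matrix. Single-cell RNA sequencing covered NK cells sorted as CD45+lin-NK1.1+NKp46+ cells from lung and blood of wild-type female C57BL/6 mice aged 9 weeks. Naive mice received nothing, and the others were injected intravenously with 100000 PyMT mammary tumor cells either 6 h or 14 days before analysis. The cells of the mice of a time point were pooled and made up 1 library, in which hashtag antibodies separated lung from blood. Library and tissue gave 6 groups of 3676 (naive lung), 4367 (naive blood), 4680 (6 h lung), 2746 (6 h blood), 3575 (14-day lung) and 2069 (14-day blood) cells, 21113 in all. With 1 library per time point no difference between time points could be tested, and time and library cannot be told apart. Lung and blood could be tested over the 3 libraries. All intervals below are 95% intervals that cover counting error only, and they do not cover the variation between mice or libraries.

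Ly49 receptors bind MHC class I or related molecules on other cells, and each NK cell switches on its own subset of the genes, which gives a repertoire of cells with different combinations. Inhibitory members carry a tyrosine-based motif (ITIM) near the start of the protein, through which they recruit phosphatases when self MHC class I is bound. Activating members lack the motif and signal through the adaptor DAP12, the product of Tyrobp. Among the members, Klra4 (Ly49D) and Klra8 (Ly49H, which recognises a cytomegalovirus protein) are the activating receptors of C57BL/6 mice. Klra1 (Ly49A), Klra3 (Ly49C), Klra7 (Ly49G), Klra9 (Ly49I), Klra5 (Ly49E), Klra6 (Ly49F) and Klra10 (Ly49J) are counted as inhibitory members.

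All members lay on the minus strand of chromosome 6 (GRCm38, GENCODE M21), between chr6:129898996-130386874, a stretch of 488 kb with 3 other Klra genes between them. The coding sequences were 76.6% to 96.9% identical in pairs, and the closest were Klra9 and Klra10 (96.9%), Klra3 and Klra10 (96.2%) and Klra3 and Klra9 (95.9%). The coding stretch at the place of the motif differs between the activating and the inhibitory members, and single differences elsewhere are not shown. The stretch is given for the 6 members found in the largest shares of cells, called the common members below. Each line holds 14 codons, read 5′ to 3′ on the coding strand, and capitals mark the 6 codons at the place of the motif, from codon 6 on.

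Klra7: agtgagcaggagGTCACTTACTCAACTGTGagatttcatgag
Klra9: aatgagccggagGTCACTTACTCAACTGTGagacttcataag
Klra3: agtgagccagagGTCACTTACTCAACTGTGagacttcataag
Klra1: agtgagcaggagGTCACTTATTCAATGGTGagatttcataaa
Klra4: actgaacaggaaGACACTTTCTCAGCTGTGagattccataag
Klra8: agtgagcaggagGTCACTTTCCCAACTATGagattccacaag

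The third codon in capitals is a tyrosine codon, TAC or TAT, in the 7 inhibitory members and TTC, a phenylalanine codon, in Klra4 and Klra8. Counted from 1 at the 5′ end of the capitals and with Klra7 as the reference, both activating members carried A8T. Klra4 also differed by T2A and A13G, Klra8 by T10C and G16A, and Klra1 by C9T, C14T and T15G, which left its tyrosine codon in place. Klra3 and Klra9 had the same letters in capitals as Klra7.

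The similarity of the genes bears on how well their counts can be separated. Of the 90-base windows in the last 500 bases of the annotated transcripts, 10.5% of those of Klra10, 5.15% of those of Klra3 and 4.74% of those of Klra9 occurred in another gene as well, and none of those of the other members did. The annotated transcript of Klra10 ends 16 bases after its stop codon, whereas those of the other members run on for 201 to 315 bases. Levels and differences of Klra10 are therefore uncertain, and to a lesser degree those of Klra3 and Klra9.

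The groups held between 16936897 and 35922737 UMIs, with a median of 5909.5 to 7524 UMIs per cell. The libraries shared 7 to 16 cell barcodes pairwise, 0.211% or less of the cells of either library. Klrb1c, which encodes NK1.1, was found in 91.1% to 96.9% of cells at 3000 UMIs per cell. Ncr1, which encodes NKp46, was found in 90.3% to 97.8% of cells of the other groups but in 78.7% of 14-day lung cells, and Prf1 (perforin) in 89.3% to 93.8% of the other groups but in 72.5% of 14-day lung cells. The summed level of 8 ILC1 markers was 54.1 to 65.5 CPM (UMIs of a gene per 1000000 UMIs of the group) in the naive and 6 h groups, 184 CPM in 14-day lung and 117 CPM in 14-day blood. These markers were Cxcr6, Tmem176a, Tmem176b, Il7r, Cd200r1, Itga1, Tnfsf10 and Il2ra. The paper reports Itga1 as upregulated in tumor-associated NK cells too, so a cell with a marker need not be an ILC1. The 4 hemoglobin genes reached 89.0 CPM in 14-day lung and at most 0.362 CPM elsewhere, the 8 T cell markers 187 to 295 CPM and the 7 myeloid markers 87.6 to 189 CPM. Free RNA made up at most 3.02% of the counts of a cell in the naive library, by the lowest bound that markers of other cells gave, at most 3.96% in that of 6 h and at most 0.729% in that of 14 days.

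The members made up an appreciable share of the transcriptome of these cells. Their summed level was 4174 CPM in naive lung, 4742 in naive blood, 3764 in 6 h lung, 4169 in 6 h blood, 3432 in 14-day lung and 4180 in 14-day blood. The highest sum was that of naive blood and the lowest that of 14-day lung. Each molecule gives 1 tag near the 3′ end of the transcript, so a level counts molecules and does not grow with transcript length.

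Both activating receptors led the family in every group. Klra4 had a level of 1276 CPM in naive lung, 1431 in naive blood, 1157 in 6 h lung, 1267 in 6 h blood, 1081 in 14-day lung and 1227 in 14-day blood. Klra8 followed with 1112, 1263, 951, 1026, 876 and 1041 CPM in the same order of groups. Klra4 gave 29.4% to 31.5% and Klra8 24.6% to 26.6% of all counts of the family, and their intervals overlapped neither each other nor those of the next member in any group.

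Among the inhibitory receptors, Klra9 and Klra7 came next. Klra9 had a level of 732 CPM in naive lung, 741 in naive blood, 636 in 6 h lung, 677 in 6 h blood, 516 in 14-day lung and 752 in 14-day blood. Klra7 had a level of 578, 729, 543, 642, 555 and 646 CPM in the same order. In naive blood the intervals of Klra9 and Klra7 overlapped, and in 14-day lung alone of the 6 groups Klra7 stood above Klra9. Klra3 followed with 235 to 330 CPM and then Klra1 with 120 to 170 CPM in every group.

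The remaining members were rare. Klra10 had a level of 26.3 CPM in naive lung, 48.3 in naive blood, 19.2 in 6 h lung, 34.7 in 6 h blood, 11.6 in 14-day lung and 26.6 in 14-day blood, so that it was higher in blood than in lung at each time point. Klra5 lay between 18.3 and 34.3 CPM and Klra6 between 15.7 and 28.8 CPM. The intervals of Klra5 and Klra6 overlapped in the naive and 6 h groups, and in 6 h lung Klra10 could not be separated from Klra5 either. The relatives Klra2 and Klra17, which are not among the 9 members, reached at most 0.71 and 1.09 CPM.

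**Figure D1:**
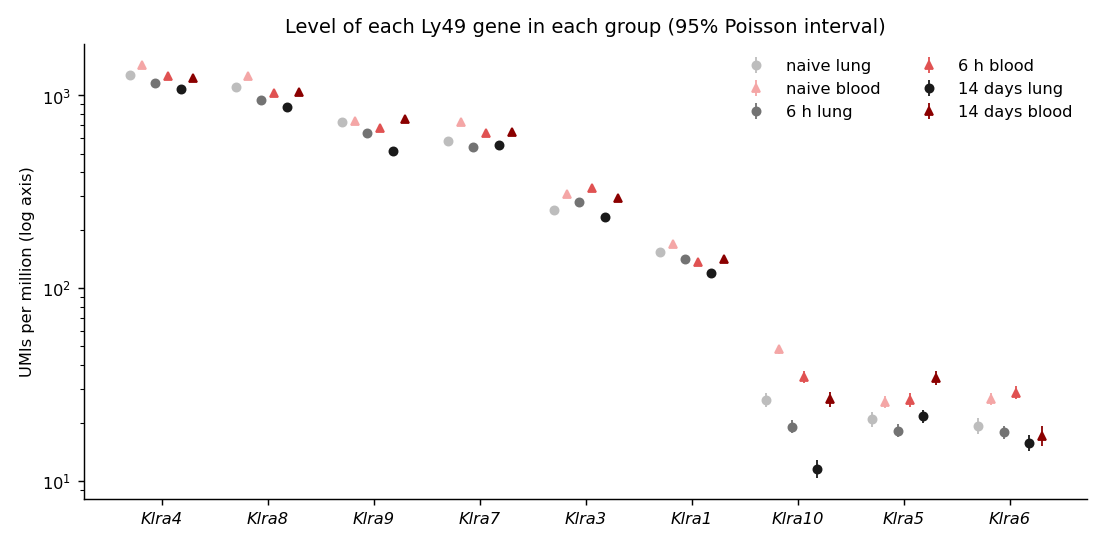
Level of the 9 Ly49 genes (x axis) in CPM on a log axis, with circles for lung, triangles for blood, shades for time and bars for 95% Poisson intervals. Klra4 and Klra8 stand highest in all 6 groups, Klra10, Klra5 and Klra6 lie below 50 CPM, and Klra9 in 14-day lung (516 CPM) lies apart from its other values (636 to 752 CPM).

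The first question was how the family differed after tumor cell injection. At 14 days in the lung, 8 of 9 members were lower than in naive lung with intervals that excluded 0, and the median log2 ratio of the members was -0.30, against -0.19 for all 8108 genes with at least 10 CPM in either group. Relative to that median, Klra3 (0.06), Klra7 (0.13) and Klra5 (0.24) lay above the other genes and the other 6 members below. Klra10 was the only member lower by 1.5-fold or more, a share to be read against 10.9% of all genes that were lower by as much. Its log2 ratio was -1.19 (-1.38 to -0.99).

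Klra9 showed the next largest difference in the lung, with a log2 ratio of -0.50 (-0.54 to -0.47), a level 1.42-fold lower than in naive lung. In blood its level at 14 days did not differ from naive beyond counting error, with a log2 ratio of 0.02 (-0.01 to 0.05). The difference between the lung and the blood ratio was -0.53 (-0.57 to -0.48) and was the largest of the 9 members. The activating receptors differed less between tissues, with log2 ratios of -0.24 in lung and -0.22 in blood for Klra4, and of -0.34 and -0.28 for Klra8. Klra1 gave -0.36 in lung and -0.26 in blood, and Klra7 lay near its naive level in lung with -0.06 (-0.09 to -0.03). The lower share of cells with Ncr1 and the higher ILC1 marker level of 14-day lung moved with these ratios, and their part in them was not tested.

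In blood at 14 days, 7 of 9 members were lower than in naive blood, with a median log2 ratio of -0.22 against -0.15 for all genes. Klra10 (-0.86, -1.02 to -0.71) and Klra6 (-0.64, -0.83 to -0.44) were lower by 1.5-fold or more, as were 3.01% of all genes. Klra5 went the other way, with a log2 ratio of 0.42 (0.26 to 0.58), or 34.3 against 25.7 CPM.

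At 6 h the differences were smaller. The median log2 ratio of the members was -0.14 in lung and -0.18 in blood, against -0.07 and -0.06 for all genes. No member was lower by 1.5-fold, as were 0.0874% of genes in lung and 0.234% in blood. Klra10 had the lowest ratios, -0.46 in lung and -0.48 in blood, and the activating Klra8 had -0.23 and -0.30. Klra3 alone had intervals above 0 in both tissues, with 0.13 (0.08 to 0.18) in lung and 0.10 (0.06 to 0.15) in blood. Klra1 was lower in blood (-0.32) than in lung (-0.12), and the difference between these ratios was 0.20 (0.11 to 0.29).

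**Figure D2:**
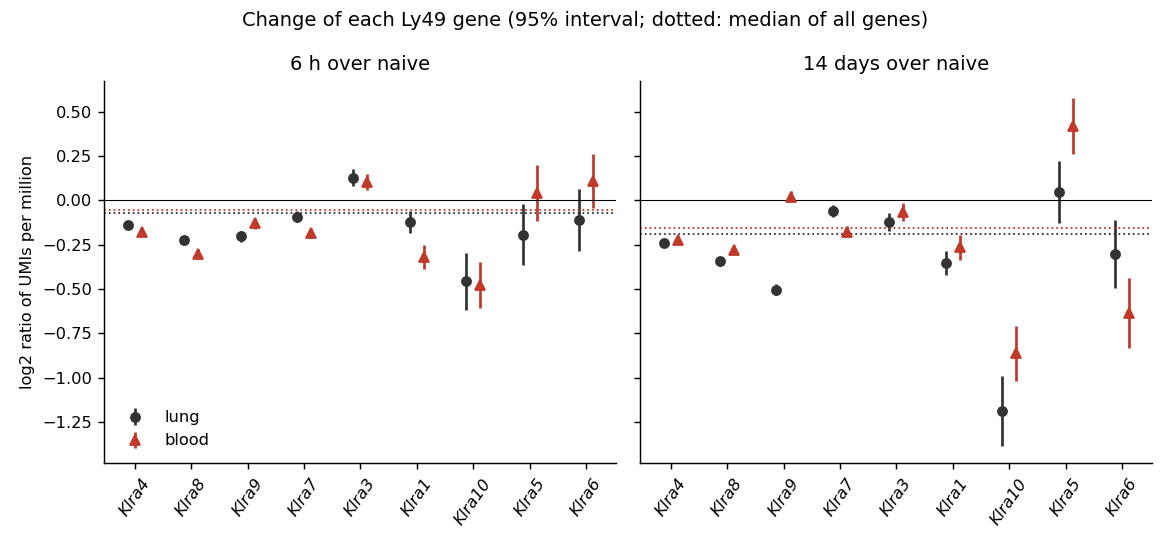
The log2 ratio of the CPM of each Ly49 gene (x axis) at 6 h (left) and 14 days (right) over naive, with circles for lung, triangles for blood, bars for 95% counting intervals and dotted lines for the median of all genes in each tissue. At 14 days Klra9 lies at -0.50 in lung and 0.02 in blood, and Klra10 is lowest in both tissues.

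Lung and blood were compared within each library, where both were sequenced together. Members were lower in lung than in blood in nearly every case, 9 of 9 in naive, 8 of 9 at 6 h and 9 of 9 at 14 days, and the median log2 ratio was -0.27, -0.24 and -0.25, against -0.09, -0.10 and -0.11 for all genes. The median of all genes was thus itself below 0 each time, and the share of all genes below 0 was not counted. Relative to that median Klra9 stood above 0 in naive (0.08) and at 6 h (0.005). In naive mice Klra10 alone was lower by 1.5-fold or more (-0.88), beside 3.95% of all genes. At 6 h Klra10 (-0.86) and Klra6 (-0.68) were, beside 3.4% of genes, and at 14 days Klra10 (-1.20) and Klra5 (-0.66), beside 3.96% of genes. Klra9 was nearly level between tissues in naive mice (-0.02, -0.05 to 0.01), at -0.09 at 6 h and at -0.54 (-0.58 to -0.51) at 14 days. Klra7 was lower in lung by a similar amount each time, with -0.33, -0.24 and -0.22. The tissues were also tested over the 3 libraries, with edgeR's quasi-likelihood test on the summed counts, the library as a block and Benjamini-Hochberg adjustment over all genes tested, a test added after the data had been seen. Of the 9 members 2 were lower in lung at an adjusted p under 0.05, read against 7.12% of the 12653 genes tested. They were Klra10, with a log2 fold change of -0.87 (edgeR adjusted p = 0.00248), and Klra5, with -0.40 (edgeR adjusted p = 0.0229), and both were lower in lung in 3 of 3 libraries. The next were Klra3 with -0.18 (edgeR adjusted p = 0.0656) and Klra6 with -0.34 (edgeR adjusted p = 0.108). Klra1 (-0.01), Klra4 (-0.06) and Klra8 (-0.08) had the log2 fold changes nearest 0. Without the block none of the 9 members passed this threshold in edgeR, and 2 had an unadjusted p under 0.05. With 1 library left out in turn, 2 members passed without naive, Klra10 alone without 6 h, and 5 without 14 days (Klra3, Klra5, Klra6, Klra7 and Klra10). These counts are to be read against all genes lower in lung in the same fits. Those were 354 of 12653 without the block and 175 of 12693 without naive. They were 72 of 12733 without 6 h and 2583 of 12795 without 14 days. The libraries are of different time points, so the spread in this test holds any difference between time points as well.

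Fewer cells with a receptor and less RNA per cell both lower such a sum. Cells with a UMI were counted next, but less RNA per cell also lowers this count, so it does not separate them.

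To compare cells of different depth, each cell was thinned to 3000 UMIs, which left 2063 to 4640 cells per group. Klra9 was found in 62.9% of cells in naive lung, 61.2% in naive blood, 58.6% in 6 h lung, 59.3% in 6 h blood, 52.3% (50.6% to 53.9%) in 14-day lung and 62.8% (60.7% to 64.9%) in 14-day blood. Cells with Klra9 held on average 3.74 UMIs of it in naive lung and 3.37 in 14-day lung, so that the share of cells and the level per positive cell were both lower. A lower level per cell also leaves fewer cells with a UMI, so share and level were not separated. Klra8 was found in 55.4% to 63.0%, Klra4 in 47.1% to 57.8% and Klra7 in 49.1% to 55.5% of cells. Klra3 was found in 28.2% to 31.8% and Klra1 in 12.9% to 15.9% of cells.

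A positive cell held most UMIs for Klra4, 6.22 to 7.96 on average, followed by Klra8 with 4.94 to 6.35. Klra4 therefore stood above Klra8 and Klra9 in level although it was found in fewer cells than Klra8 in every group. Only 6.89% to 10.9% of the cells with Klra4 had no more than 1 UMI of it. Klra10 was found in 3.51% to 12.2%, Klra6 in 3.11% to 5.65% and Klra5 in 2.03% to 3.64% of cells. Of the cells with Klra10, 81.5% to 93.5% had 1 UMI. Free RNA alone could give a UMI of Klra4 to at most 11.8% of cells in the naive library, 13.9% in that of 6 h and 2.37% in that of 14 days. For Klra9 these bounds were 6.65%, 7.41% and 1.45%. The shares of cells were not corrected for free RNA. Its part in their differences between libraries was not tested. Only 9 cells carried B cell or myeloid markers without Ncr1, too few to give the share of a cell type that should lack the receptors.

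Most cells carried several receptors. The median was 3 members per cell in each group, and the mean was 2.91 in naive lung, 3.01 in naive blood, 2.84 in 6 h lung, 2.91 in 6 h blood, 2.61 in 14-day lung and 2.76 in 14-day blood. Cells with 3 or more members made up 64.2% (62.6% to 65.8%) in naive lung, 66.6% (65.2% to 68.0%) in naive blood, 62.3% in 6 h lung, 63.8% in 6 h blood, 55.2% (53.5% to 56.8%) in 14-day lung and 59.7% (57.5% to 61.8%) in 14-day blood. The interval of 14-day lung lay below those of all other groups, and that of 14-day blood overlapped only that of 6 h lung (60.9% to 63.7%). Cells in which no member was found made up 2.73% in naive lung, 3.01% in naive blood, 3.32% in 6 h lung, 3.23% in 6 h blood, 6.02% in 14-day lung and 5.19% in 14-day blood. Free RNA was not subtracted from any of these shares, and its bound was lowest in the 14-day library. Its part in the differences between time points was not tested.

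If each member were detected independently of the others, the product of their shares would leave 1.52%, 1.36%, 1.83%, 1.67%, 2.84% and 2.15% of cells without a member, in the same order of groups. The observed share lay above this product in every group. The standard deviation of the number of members per cell, 1.23 to 1.31, was likewise above the 1.19 to 1.22 that the product gives. Cells with at least 3 members lay close to the product, with 64.2% against 63.3% in naive lung and 55.2% against 53.1% in 14-day lung.

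**Figure D3:**
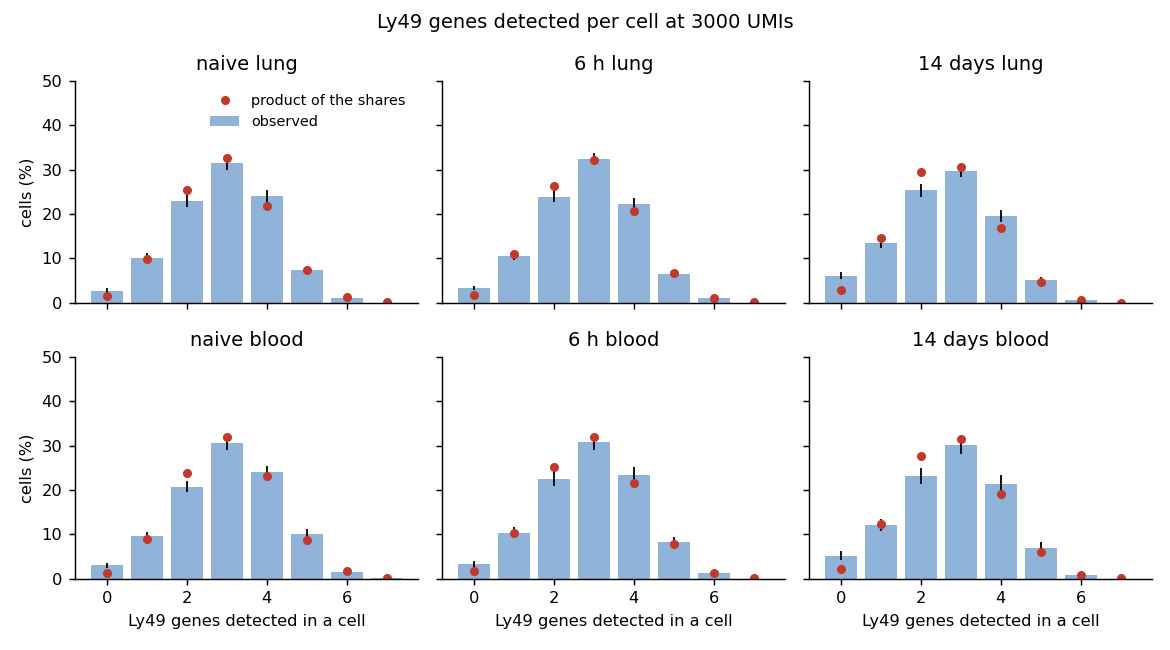
Share of cells (y axis, %) by the number of Ly49 genes detected in a cell thinned to 3000 UMIs (x axis), with bars for the observed share, lines for 95% binomial intervals and red points for the product of the members' own shares. Cells without a member lie above the product in all 6 groups, 6.02% against 2.84% in 14-day lung.

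Cells with markers of ILC1, a related innate lymphocyte that also carries NK1.1 and NKp46, lacked all 9 receptors more often than cells without such markers. Among cells with at least 3 of 8 ILC1 markers, no member was found in 38.1% of 21 cells in naive lung, 50% of 22 in 6 h lung, 72.3% (57.4% to 84.4%) of 47 in 14-day lung and 63.6% (49.6% to 76.2%) of 55 in 14-day blood. In cells without any ILC1 marker the share was 1.83% in naive lung, 3.33% in 14-day lung, 2.08% in naive blood and 2.5% in 14-day blood. The mean number of members in the ILC1-marker cells was 1.24 in naive lung, 0.909 in 6 h lung, 0.362 in 14-day lung and 0.455 in 14-day blood, so that it was above 1 in the few cells of naive lung. Klra9 was the member most often found in the ILC1-marker cells at 14 days, in 5 of 47 lung and 11 of 55 blood cells. Without the cells that had an ILC1 marker, 3 or more members were found in 65.7% of cells in naive lung, 59.2% in 14-day lung, 68.5% in naive blood and 64% in 14-day blood. Itga1 is among the markers, so NK cells with Itga1 were left out as well. Cells with both Itga1 and Pmepa1 numbered 20 or more in 14-day lung only, with 257 cells there. They had Klra9 in 43.6% (37.4% to 49.9%) against 53.0% (51.2% to 54.7%) of the other cells, and Klra4 in 53.7% against 53.4%. Klra10 was found in 1.17% (0.24% to 3.37%) of them against 3.69% (3.07% to 4.39%). These intervals overlapped, which does not show that the shares were equal. These cell kinds were chosen after the data had been seen.

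Co-detection was then counted for pairs of members in the same cell, as the number of cells with both over the number that the product of the 2 shares gives. The interval of such a ratio is the Poisson interval of the cells with both, with the product held fixed. It takes no account of the limits that the 2 shares set, so an interval that includes 1 does not show independent detection. Among the 15 pairs of the 6 common members, 9 lay above 1 and 6 below 1 in each of the 6 groups, and the median ratio was 1.02 to 1.06. By the log2 odds ratio the strongest link was that of the activating receptors, with a median of 1.09 over the groups. In naive lung 1409 cells had both Klra4 and Klra8, against 1282 from the product, and the ratio was 1.10 (1.04 to 1.16) there and 1.13, 1.12, 1.12, 1.16 and 1.19 in naive blood, 6 h lung, 6 h blood, 14-day lung and 14-day blood. In 14-day blood 67.2% of cells with Klra4 had Klra8, against 47.2% of cells without Klra4. The log2 odds ratio of the pair was 0.88 to 1.19 over the groups. By the ratio to the product, Klra1 and Klra4 (median 1.20) stood above Klra4 and Klra8 (median 1.13).

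Klra4 was also linked to Klra1, with ratios of 1.15 to 1.32, and to Klra7, with 1.07 to 1.15. Klra7 and Klra8, Klra3 and Klra8, Klra3 and Klra4, and Klra1 and Klra7 lay above 1 in all groups as well, with ratios between 1.03 and 1.15. The intervals of Klra4 with Klra8, Klra1 and Klra7 lay above 1 in 6 of 6 groups, that of Klra3 and Klra4 in 4, that of Klra3 and Klra8 in 2, and those of Klra7 and Klra8 and of Klra1 and Klra7 in 1. Of the rare members, Klra10 (1.18 to 1.30) and Klra6 (1.10 to 1.30) had ratios above 1 with Klra4 in every group, with intervals above 1 in 5 and 2 of them. This was not particular to Klra4. Klra6 with Klra8 (1.07 to 1.28), Klra6 with Klra7 (1.10 to 1.32) and Klra10 with Klra8 (1.05 to 1.19) lay above 1 in every group too. Their intervals lay above 1 in 2, 1 and 2 groups. Klra5 had a ratio of 0.68 to 0.82 to Klra4, with intervals below 1 in naive lung and 6 h lung. Its ratio to Klra9 was 1.10 to 1.23, and the interval of this ratio included 1 in all 6 groups.

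Among the 6 common members, the pairs below 1 all joined inhibitory receptors or Klra9 with Klra4. The lowest of them was Klra1 with Klra3, with 118 cells against 157 from the product in naive lung and ratios of 0.75, 0.65, 0.73, 0.66, 0.69 and 0.74 in the 6 groups. In naive blood 18.7% of cells with Klra1 had Klra3, against 30.9% of cells without Klra1. Klra9 lay below 1 with Klra1 (0.81 to 0.85), Klra7 (0.89 to 0.97), Klra4 (0.92 to 0.96) and Klra3 (0.93 to 0.99). Klra3 with Klra7 gave 0.88 to 0.94. The intervals of Klra1 with Klra3 and with Klra9 lay below 1 in 6 of 6 groups, those of Klra3 with Klra7 and of Klra4 with Klra9 in 5, that of Klra7 with Klra9 in 4 and that of Klra3 with Klra9 in none. Klra8 was the only common member whose ratio to Klra9 was above 1 in all groups, at 1.01 to 1.07. Its interval lay above 1 only in 14-day lung (1.00 to 1.13), and in 6 h blood the ratio became 0.99 without thinning.

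**Figure D4:**
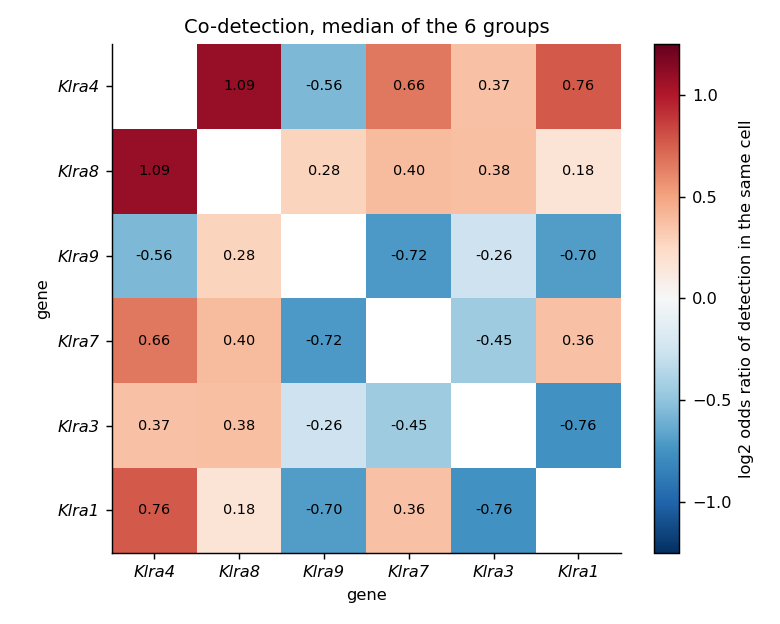
Median over the 6 groups of the log2 odds ratio that 2 Ly49 genes (rows and columns) are detected in the same cell, for the 6 common members, with red above 0 and blue below. Klra4 and Klra8 have the highest value (1.09), Klra1 and Klra3 the lowest (-0.76), and Klra9 is below 0 with each gene but Klra8.

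The links had no strong relation to similarity of sequence or distance on the chromosome. Over the 15 common pairs the log2 odds ratio and the identity of the coding sequences had a Pearson r of 0.15 and a Spearman rho of 0.06, and log2 odds ratio and gene distance 0.36 and 0.37. The pairs share genes and cells, so these values are a description. Klra3 and Klra9, whose transcripts share windows, had ratios below 1 with intervals that included 1. Windows from the last 500 bases of Klra9 also occurred in Klra8, and the ratios of this pair were 1.01 to 1.07.

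Read as combinations of Klra4, Klra7, Klra8 and Klra9, the cells spread over all 16 possible combinations. Cells with all 4 made up 8.76% to 13.2% and lay between 0.97 and 1.20 times the product. Klra4, Klra7 and Klra8 without Klra9 were found in 8.10% to 11.4% of cells, 1.47 to 1.57 times the product. Klra9 as the sole member of the 4 was found in 7.20% to 9.65% of cells, 1.40 to 1.62 times the product. Klra8 as the sole member was found in 2.18% to 3.11% of cells, 0.41 to 0.54 times the product, and Klra4 alone in 1.82% to 3.93%, 0.51 to 0.70 times the product. Either activating receptor was thus the sole member of the 4 less often than the product gives, in lung and in blood and at each time point.

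NK cells mature from CD27-positive to CD11b-positive cells, and the genes Cd27 and Itgam (which encodes CD11b) were used to sort cells by stage. Klra9 showed the clearest gradient. It was found in 42.3% of cells with Cd27 but no Itgam and in 67.3% of cells with Itgam but no Cd27 in naive lung, in 40.1% and 66.2% in naive blood, in 41.8% and 64.5% in 6 h lung, in 46.9% and 64.2% in 6 h blood, in 31.5% and 62.6% in 14-day lung, and in 38.7% and 69.9% in 14-day blood. The difference was 17.3 to 31.1 percentage points and had the same direction in 6 of 6 groups. Klra8 differed by 5.01 to 11.04 and Klra3 by 5.92 to 11.2 points in the same direction in all 6 groups. Klra1 had the higher share in Itgam cells in 1 of 6 groups, Klra7 in 3 and Klra4 in 4.

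The share of cells in which Itgam alone was found moved with the Klra9 level in the lung. Cells with Itgam but no Cd27 made up 49.5% in naive lung and 35.1% in 14-day lung, and cells with neither 38.7% and 52.4%. Within the cells with neither gene, Klra9 was found in 62.6% (60.0% to 65.2%) in naive lung and 49.1% (46.8% to 51.4%) in 14-day lung. Within the cells with Itgam only it was found in 67.3% (65.1% to 69.5%) and 62.6% (59.8% to 65.3%). The intervals of the Itgam-only cells overlapped, which does not show that the shares were equal. In blood the Itgam-only share was 44.5% at 14 days against 53.1% in naive mice, and the share of cells with Klra9 was 62.8% against 61.2%. The part of these classes of cells in the Klra9 level was not tested. Klra4 and Klra8 were found together more often than the product in each of the 24 combinations of group and class by Cd27 and Itgam, with ratios of 1.06 to 1.49. These ratios carry no intervals, and the classes held as few as 106 cells, so single ratios near 1 are uncertain.

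**Figure D5:**
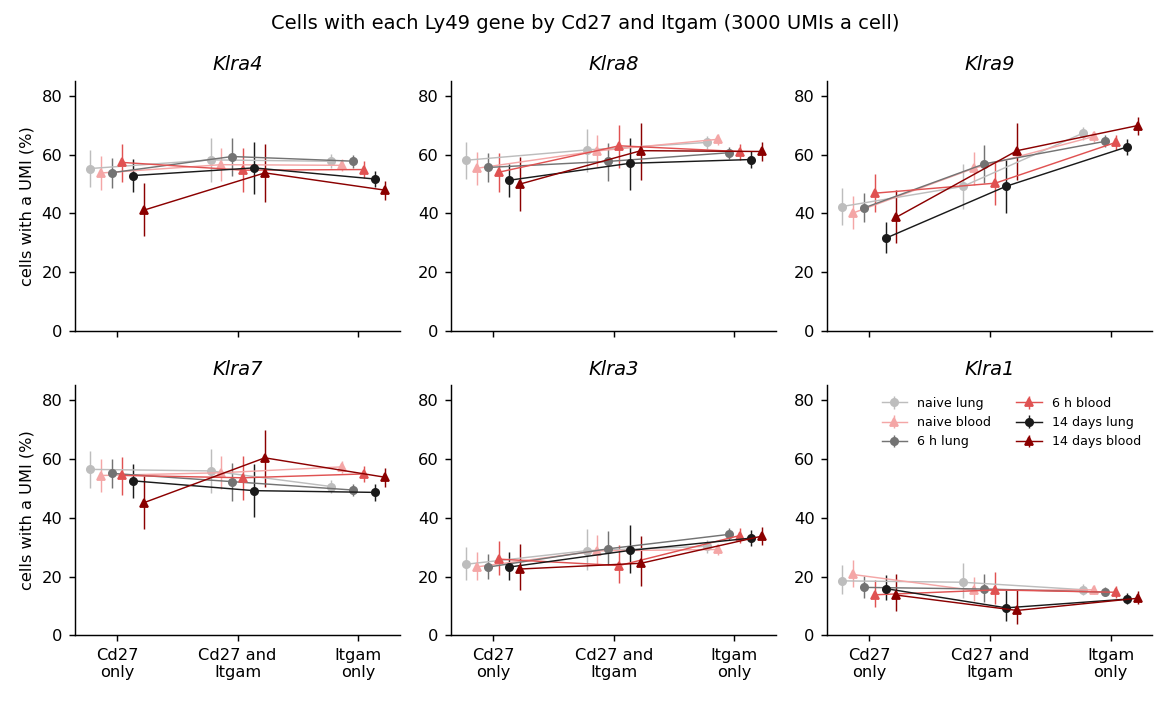
Share of cells with a UMI of each of the 6 common Ly49 genes (y axis, %, with 95% binomial intervals) in cells with Cd27 only, with Cd27 and Itgam, and with Itgam only, thinned to 3000 UMIs, by group (circles lung, triangles blood). Klra9 goes from 31.5% to 46.9% in Cd27-only cells to 62.6% to 69.9% in Itgam-only cells, and Klra1 from 13.7% to 20.7% to 12.3% to 15.5%.

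Genes of maturation differed with Klra9 in the same way. In cells with Klra9, all 8 genes of the differentiated list were higher than in cells without it in 6 of 6 groups, with median log2 ratios of 0.92 for the chemokine receptor Cx3cr1, 0.84 for Klrg1, 0.51 for granzyme gene Gzmb, 0.45 for S1pr5 and 0.40 for Prf1. Of the 6 genes of the less differentiated list, 5 were lower in 6 of 6 groups, among them Emb (-1.26), Cd27 (-0.82) and Cd28 (-0.75). Cxcr4 was lower in 5 of 6. Of the transcription factors, Tcf7 (-0.92), Eomes (-0.19) and Tox (-0.20) were lower and Zeb2 (0.36), Prdm1 (0.28) and Tbx21 (0.20) higher in all groups. With Klra3, 7 of the 8 differentiated genes were higher in all groups, and with Klra5 also 7. With Klra4, 5 of the 8 were lower in all groups, with a list median of -0.07, but of the 6 less differentiated genes 4 were lower as well and 1 was higher, with a median of -0.29. With Klra7, 4 of the 8 differentiated genes were lower, with a list median of -0.07, and of the less differentiated genes 2 were lower and 1 higher, with a median of -0.06. With Klra8, 2 of the 8 differentiated genes were higher and 2 lower (median 0.03), and 5 of the 6 less differentiated genes were lower (median -0.39).

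Cells with 3 or more members and cells with none differed in other receptor genes. The cells with none were few, 88 to 213 per group, and held more cells with an ILC1 marker. Such a marker was found in 38.8% of the cells with none against 6.68% of those with 3 or more members in naive lung, 37.2% against 6.65% in naive blood, 31.8% against 5.95% in 6 h lung, 44.3% against 6.90% in 6 h blood, 57.7% against 18.0% in 14-day lung and 57.9% against 6.42% in 14-day blood. Many of the contrasts are therefore also given for cells without any ILC1 marker, an alternative chosen after the data had been seen. The cells with no member then numbered 45 (14-day blood) to 105 (6 h lung) per group, and these values carry no intervals. Klrc1, which encodes the inhibitory NKG2A chain, was lower in cells with 3 or more members in 6 of 6 groups, with a median log2 ratio of -1.95 and a range of -2.24 to -1.53, and also among cells without an ILC1 marker (median -1.97, -2.21 to -1.60). Its partner Klrd1 (CD94) was higher in all groups (0.32), as were Klrc2 (0.30), Klre1 (0.29) and Klri2 (1.00), whereas Klri1 was lower (-0.98). Among signalling genes, the adaptor Tyrobp (0.26) and the kinase Syk (0.55) were higher in all groups. Of the ligand genes, B2m, the light chain of MHC class I, was lower in all groups (-0.22), and H2-K1 (-0.06) and H2-D1 (-0.03) had no common direction. In 6 h blood the interval of B2m included 0 (-0.04, -0.15 to 0.07). So did those of Klrd1 (0.11, -0.06 to 0.28) and Klrc2 (0.14, -0.13 to 0.43) in naive lung. The intervals of Klrc2 and Klri1 in 6 h blood and of Syk in naive blood included 0 too. Among cells without an ILC1 marker, Klrc2 (0.43), Klre1 (0.11), Klri2 (0.69), Tyrobp (0.20) and Syk (0.48) were higher and B2m (-0.12) lower in 6 of 6 groups, whereas Klrd1 (0.19) was higher in 5 and Klri1 (-0.81) lower in 5. The value nearest 0 was 0.005 for Syk, 0.014 for Tyrobp, 0.044 for Klre1 and -0.009 for B2m, so the direction of these genes is uncertain. It was 0.32 for Klrc2 and 0.48 for Klri2.

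Genes of maturation differed in the same contrast, where Thy1 (-1.82), Emb (-2.25), Cd28 (-1.55) and Tcf7 (-1.19) were lower and Gzmb (0.86), Prf1 (0.90), Itgam (0.86) and Eomes (0.78) higher in 6 of 6 groups. Of the differentiated list, 7 of 8 genes were higher in all groups, and Cx3cr1 (-0.15) was higher in 2. Of the 6 less differentiated genes 4 were lower in all groups, with a list median of -1.13. Some of these intervals included 0. They were those of Itgam, Klrg1 and S1pr5 in naive lung, Klrg1 in 6 h lung, and Itgam, S1pr5 and Cd27 in 6 h blood. Among cells without an ILC1 marker 3 of 8 differentiated genes remained higher in all groups, Gzma (0.36), Gzmb (0.49) and Prf1 (0.47), and 3 of 6 less differentiated genes lower, Thy1 (-1.81), Emb (-1.69) and Cd28 (-1.25). The value nearest 0 was 0.101 for Gzma, 0.099 for Gzmb, 0.036 for Prf1, -0.39 for Thy1, -1.10 for Emb and -0.27 for Cd28. Itgam (0.40) was then higher in 4 groups, Eomes (0.41) in 5, and Tcf7 (-0.64) was lower in 5. Klrg1 (0.11), Zeb2 (0.29) and S1pr5 (0.27) were higher in 5 groups. Cx3cr1 went the other way and was lower in 5 of 6, with a median of -0.51 (-1.31 to 0.11). Of the less differentiated genes, Cd27 (-0.39) and Ccr2 (-0.28) were lower in 5 groups and Cxcr4 (-0.52) in 4. The part of the ILC1-marker cells in these values was not tested further. Of 4200 genes compared, the highest median log2 ratios were those of Khdc1a (2.49), Zfhx3 (1.72), Ndnf (1.67), Serpinb9b (1.47) and Dgkh (1.45). The lowest were those of Lyz2 (-7.94), the phosphatase gene Inpp4b (-3.42), the granzyme gene Gzmc (-3.29), Ltb (-3.08) and St6galnac3 (-2.89). The Lyz2 value rested on 1 to 4 cells per group among the 88 to 213 cells without a member, with up to 93 UMIs in 1 cell. Among cells without an ILC1 marker the same 5 highest genes were higher in 6 of 6 groups, with medians of 0.66 to 1.94, and Ltb (-2.29) and St6galnac3 (-2.22) lower in 6 of 6. The lowest value of Serpinb9b was 0.035. Inpp4b (-0.93) was lower in 5 of 6. Gzmc had a ratio in 4 groups only and was lower in these (-2.51, -3.78 to -0.30), and Lyz2 had a ratio in 1 group (-6.365).

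Over the groups, the genes whose level was most like the summed level of the family were Gab3 (Pearson r = 0.997 over 6 groups), Ap3d1 (0.99), Arhgap25 (0.99), Manba (0.99) and L3mbtl3 (0.99). Gab3 had 221, 277, 189, 224, 161 and 217 CPM in the order of groups used above. The 6 groups come from 3 libraries, and 10.3% of the 4201 genes compared had an r above 0.9. Between members, Klra4 and Klra8 were most alike (r = 0.98), and Klra1 and Klra5 least (0.11).

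Other genes of the same pathways differed at 14 days in the lung as follows, beside 10.9% of all genes that were lower and 4.64% that were higher by 1.5-fold or more. Of the 8 signalling genes 1 was lower by 1.5-fold or more than in naive lung, Syk with a log2 ratio of -0.86, and Tyrobp had -0.26. None of the 5 ligand genes was, and their median was 0.13. Of the 9 transcription factor genes 3 were lower and 1 higher, namely Zeb2 (-1.03), Nfil3 (-0.63) and Lef1 (-0.63) against Tcf7 (0.62). Of the 7 genes of CD94, NKG2 and related receptors 1 was lower, Klri1 (-0.92). Of the 8 differentiated genes 5 were lower, with a median of -0.75. Of the 6 less differentiated genes 1 was lower and none higher, with a median of -0.15. In blood at 14 days, beside 3.01% of all genes lower and 0.949% higher, 1 of the 8 differentiated genes was lower (Zeb2, -0.59) and 1 higher (Gzmb, 0.67), with a list median of 0.10. Of the 6 less differentiated genes 3 were lower there and 1 higher, with a median of -0.53. With lists of 5 to 9 genes, a single gene past the fold is a share above these percentages and marks no list as apart from the other genes.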

How the data were processed

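UMI counts per gene and per hashtag were used as the authors deposited them, for all barcodes and without normalization. The file headers name Cell Ranger 7.1.0, the submitters' processing notes also list Seurat 5.0, and the methods give GRCm38. Reads came from 3′ tags, so differences between near-identical genes rest on few bases. Barcodes with 800 to 5000 genes and at most 6% mitochondrial counts were kept. A tag with 90% or more of the tag counts gave the tissue, B0304 for lung and B0306 for blood, read from the order in which tissues and tags are named, and 2.08% to 4.08% of cells were left without a tissue. Doublets within a tissue stayed in. If all cells without a tissue were doublets and tags paired at random, they would make up 2.39% to 4.14%.

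Counts were summed per library and tissue and divided by the total (CPM). Levels carry exact Poisson, shares exact binomial and ratios between groups exact conditional 95% intervals. Co-detection ratios carry the Poisson interval of the cells with both over a fixed product, and differences of log2 ratios a normal approximation. A gene past the fold had at least 10 CPM in either group and a ratio of 1.5 or more. Shares and co-detection used cells thinned to 3000 UMIs, without the 6 to 86 shallower cells of a group. The bound on free RNA came from markers of other cells in barcodes with at most 100 counts. Sequences and positions come from GENCODE M21, not the release of the methods. The members, lists, cell type markers and naming rules were chosen with earlier results of these data known. Beside the members, the genes named are those of the lists, the 5 most like the summed level with at least 50 CPM, and the 5 highest and 5 lowest between cells with 3 or more members and none. Ratio intervals were tested on simulated data. Python 3 with numpy, scipy and Biopython was used. Time points had 1 library each and were compared without a test. Lung and blood were tested on summed counts over the 3 libraries with edgeR 4.0.16 in R 4.3.3 (quasi-likelihood test, TMM, filterByExpr by tissue, library and tissue as terms, 2 residual degrees of freedom), and with DESeq2 1.42.0 as an alternative. The edgeR test was also run on simulated data with a fixed spread, in which libraries differed in depth only.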

Additional observations from a re-analysis of the deposited data

How the results depend on the processing

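The labels carry no replicate numbers and each time point had 1 library, so time points were compared without a test. Lung and blood were paired by library, with the replicate block as the main fit, and this test and its alternatives were chosen after seeing the data. It called 901 genes and 2 members lower in lung. Without the block these were 354 and 0, with DESeq2 503 and 2, and with 1 library left out 72 to 2583 and 1 to 5. With 1 library left out the log2 fold change of Klra1 was -0.083 to 0.060, above 0 without naive or 14 days, and that of Klra9 -0.212 to 0.053, above 0 without 14 days. Other size factors and no filter on low counts changed neither member call. The median log2 ratio of the 9 members stayed below 0 in 7 comparisons under 8 alternatives each, between -0.31 and -0.07. With the all-gene median set to 0 it was -0.068 in 14-day blood, -0.067 in 6 h lung, -0.12 in 6 h blood, and -0.17, -0.14 and -0.14 for lung over blood (naive, 6 h, 14 days). With totals free of mitochondrial and ribosomal protein genes it was -0.13 in 14-day blood, -0.11 in 6 h lung, -0.15 in 6 h blood and -0.17 for lung over blood at 14 days. In 14-day lung over naive lung the median was -0.30 in the main analysis. It was -0.11 there with the all-gene median set to 0 and -0.13 with these totals, so its size depended on the scale. With 99% of tag counts required it was -0.17 in 6 h lung, and -0.18 and -0.28 for lung over blood at 6 h and 14 days. It was -0.17 in 6 h lung without the 10% of cells with the most UMIs, and without cells carrying markers of other types -0.20 in 14-day blood and -0.31 for lung over blood at 14 days. Of 504 ratios of single members under the alternatives, 10 changed direction, none of them past 1.5-fold in the main analysis. These included Klra3 (0.05 and 0.06) and Klra7 (0.11 and 0.13) in 14-day lung, under both of these changes of scale. Klra5 changed to -0.12 in 14-day lung and -0.29 in 6 h blood without the 10% of cells with the most UMIs.

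Genes lower by the fold, in the order of 14-day lung, 14-day blood, 6 h lung and 6 h blood over naive and naive, 6 h and 14-day lung over blood, numbered 528, 118, 0, 1, 90, 71 and 126 with at least 50 CPM, 149, 11, 0, 1, 48, 35 and 40 at a fold of 2, and 391, 56, 4, 9, 190, 166 and 193 with the all-gene median set to 0. With the totals free of mitochondrial and ribosomal protein genes they numbered 429 and 112 in 14-day lung and blood, and in 6 h lung 19 with 99% of tag counts and 15 without the 10% of cells with the most UMIs.

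Shares depend on depth. In the order naive, 6 h and 14 days, cells with 3 or more members made up 53.5%, 52.1% and 44.6% in lung and 57.7%, 54.9% and 51.9% in blood when thinned to 2000 UMIs, and 74.9%, 75.4% and 68.4% and 76.0%, 76.8% and 72.4% without thinning. With at least 2 UMIs required they made up 58.2%, 60.4% and 53.3% in lung and 62.0% and 61.5% in naive and 6 h blood. Without cells carrying an ILC1 marker, an alternative chosen after seeing the data, they made up 64.1% and 59.2% in 6 h and 14-day lung and 68.5%, 65.7% and 64% in blood. The 14-day lung share was the lowest of the 6 in each of these. The median co-detection ratio of the 15 pairs stayed between 1.00 and 1.07 in all 6 groups under 9 alternatives. Of 810 ratios of single pairs, 6 crossed 1, with values of 0.99 to 1.02: Klra3 with Klra9 in 3, and Klra1 with Klra8, Klra8 with Klra9 and Klra3 with Klra7 in 1 each.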
